A study of Mus musculus with 20 samples.

Results

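Myc, which encodes the transcription factor MYC, and 33 genes whose products build ribosomes or supply polyamines and pyrimidines were followed across whole kidneys of 20 female mice. The 34 genes were taken by symbol from a named list of MYC and its ribosome-building targets, and all 34 were present among the 55471 gene identifiers of the series. All 34 passed the filter on low counts in every comparison.

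Kidneys came from 2 experiments on the telomerase subunit TERT, both sequenced as bulk RNA at about 2 months of age. In the first, double transgenic i-TERTci mice (actin-rtTA+;tetOp-TERTci+, heterozygous for each transgene, n = 3) carried a doxycycline-inducible, catalytically inactive TERT under a ubiquitously active driver, and were set against actin-rtTA+ mice (n = 4). Both genotypes were on a mixed background, drank doxycycline for 15 days and were sampled 8 days after its withdrawal (R8). In the second, TERT KO/KO mice given adriamycin (ADR, n = 3), TERT KO/KO mice given saline (n = 3), TERT WT/WT mice given ADR (n = 3) and TERT WT/WT littermates given saline (n = 4) were on a BALB/c background. They had received 12 mg/kg of ADR, also named doxorubicin, which injures podocytes, or saline in the tail vein, and kidneys were taken 18 days later. The knockout was constitutive, not limited to a kidney cell type.

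The libraries held 39323498 to 48399322 counts (median 45705605.5). Levels are given as CPM, counts scaled to a common library total with trimmed-mean (TMM) factors, and each library came from 1 mouse. One TERT KO/KO mouse given ADR, labelled replicate 2, gave a liver-like library. Of its counts 26.1% came from Alb, the gene of serum albumin, whose CPM did not pass 87.7 in any other library. Nphs1, a podocyte gene, had 2 counts in this liver-like library and at least 167 in each other library. The liver-like library was left out of all group values and tests, so the TERT KO/KO ADR group holds 2 mice. Tert itself reached 4.31 to 28.1 CPM in i-TERTci kidneys, against 2.22 to 3.53 CPM in actin-rtTA+ kidneys. Reads were still assigned to Tert in the knockout, at 2.02 and 4.43 CPM after ADR and 1.41 to 3.08 CPM after saline, set beside 3.91 to 6.42 and 3.19 to 3.97 CPM in the TERT WT/WT groups, and whole-gene counts do not separate the deleted part. In whole kidney, fewer cells of a type and less RNA per cell cannot be told apart.

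MYC binds DNA with its partner MAX, mainly at the E-box, and drives growth genes in many cell types. Ribosome biogenesis starts in the nucleolus, where RNA polymerase I transcribes the precursor ribosomal RNA (rRNA). Small nucleolar ribonucleoproteins (snoRNPs) modify and cleave it, and separate sets of factors then assemble the small (40S) and large (60S) subunits. Genes of all these steps, and Odc1, Srm and Cad of polyamine and pyrimidine synthesis, are textbook targets of MYC. In adult kidney most tubule cells are quiescent, and these genes are expressed at a basal level.

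Promoters are shown first, since the list is defined by a transcription factor. RefSeq promoter windows of GRCm38.p6, which ran from 250 bases before to 50 bases after each start site (300 bases), were found for 27 of the 34 genes (79.4%). This is below the 80% set for a check over the whole list, so the check is void and the shares are a description. Rrp12, Fbl, Myc, Bop1, Npm1, Tcof1 and Srm had no entry. The canonical E-box CACGTG, which reads the same on both strands, was present in 8 of the 27 genes (29.6%), and in 2187 of all 27025 genes in the table (8.09%). The GC box, GGGCGG or CCGCCC, was present in 22 of the 27 genes (81.5%) and in 10324 of all genes (38.2%). A match of letters is not evidence of binding. The 8 E-boxes are printed 5′ to 3′ on the strand of each gene, with the motif in capitals and up to 10 bases on each side:
Imp4 (chr1:34439698-34439723, plus strand): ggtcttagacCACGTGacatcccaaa
Nop2 (chr6:125131813-125131838, plus strand): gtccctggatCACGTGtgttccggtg
Ltv1 (chr10:13193094-13193119, minus strand): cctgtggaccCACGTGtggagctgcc
Utp20 (chr10:88826765-88826787, minus strand): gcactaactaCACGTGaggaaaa
Pes1 (chr11:3963967-3963992, plus strand): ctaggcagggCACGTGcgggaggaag
Mybbp1a (chr11:72441357-72441376, plus strand): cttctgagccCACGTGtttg
Nle1 (chr11:82908357-82908382, minus strand): ggttctcctcCACGTGgggacgcagg
Wdr43 (chr17:71616222-71616247, plus strand): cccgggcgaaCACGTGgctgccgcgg

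In Imp4 and Nop2 the E-box lay before the start site, at positions -121 and -60. In the other 6 genes it lay after it, at position 3 in Pes1, 18 in Wdr43, 24 in Nle1, 29 in Ltv1, 38 in Utp20 and 41 in Mybbp1a, counted from the start site. These 8 genes moved in different ways below: Utp20 rose after ADR in TERT KO/KO kidneys, Imp4 fell after ADR in TERT WT/WT kidneys, and the other 6 passed no test of the main comparisons. For Nop56 and Gnl3, which rose after ADR in both genotypes, and Odc1, which fell in TERT WT/WT kidneys, the 250 bases before the start site held no E-box, and their GC boxes (1, 10 and 4, overlapping matches included) are in capitals:
Nop56 (chr2:130274162-130274411, plus strand): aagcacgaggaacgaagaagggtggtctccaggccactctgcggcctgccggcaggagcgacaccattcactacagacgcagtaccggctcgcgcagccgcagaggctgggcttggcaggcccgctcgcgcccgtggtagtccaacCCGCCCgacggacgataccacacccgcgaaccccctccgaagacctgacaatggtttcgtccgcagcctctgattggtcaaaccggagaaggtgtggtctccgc
Gnl3 (chr14:31019132-31019381, minus strand): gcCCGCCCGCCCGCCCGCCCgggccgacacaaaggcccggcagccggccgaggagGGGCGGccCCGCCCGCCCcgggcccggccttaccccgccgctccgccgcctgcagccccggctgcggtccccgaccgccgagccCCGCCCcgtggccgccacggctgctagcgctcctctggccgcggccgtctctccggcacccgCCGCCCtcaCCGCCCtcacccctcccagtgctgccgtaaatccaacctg
Odc1 (chr12:17544623-17544872, plus strand): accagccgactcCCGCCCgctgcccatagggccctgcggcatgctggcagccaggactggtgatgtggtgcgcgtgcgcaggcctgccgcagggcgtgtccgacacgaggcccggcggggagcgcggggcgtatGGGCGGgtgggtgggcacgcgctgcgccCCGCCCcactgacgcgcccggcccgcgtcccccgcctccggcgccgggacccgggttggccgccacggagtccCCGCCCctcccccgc

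In uninjured kidneys the 34 genes spanned a wide range of levels per length. In TERT WT/WT saline kidneys Odc1, the rate-limiting enzyme of polyamine synthesis, stood highest at 68.6 ± 9.85 CPM per kb of exon (SD, n = 4), and Npm1, which encodes the nucleolar chaperone nucleophosmin, followed at 49.0 ± 6.08. The next levels, 21.1 ± 1.47 CPM per kb for Pa2g4, 19.4 ± 2.00 for Srm and 17.8 ± 2.77 for Ncl, lay within each other's spread. Myc, at 2.98 ± 0.345 CPM per kb, stood beside Utp20 at 2.92 ± 0.529, and Rrp1b was lowest at 1.42 ± 0.0887. Exon lengths sum all annotated exons of a gene, so genes with long minor exons are placed too low.

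ADR raised more of these genes than it lowered, in both genotypes, and among them Myc had the largest change. Calls were made at an adjusted p under 0.05 in edgeR's quasi-likelihood test over all genes. In TERT KO/KO kidneys 6 of the 34 genes (17.6%) rose, against 3.83% of all 19023 genes tested, and 0 fell, against 1.43%. The TERT WT/WT genotype had 8 genes (23.5%) that rose, against 15.2% of all genes, and 3 (8.82%) that fell, against 12.0%. Gnl3, Myc and Nop56 rose in both genotypes, and 20 genes were called in neither. The median log2 fold change of the 34 genes was 0.24 for TERT KO/KO and 0.12 for TERT WT/WT mice, against 0.01 over all genes in each.

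In i-TERTci kidneys 0 of the 34 genes passed the edgeR test, as 1 of all 17745 genes did (0.00564%), yet the fold changes leaned upward. At an unadjusted p under 0.05 were 9 of the 34 genes and 3972 of all 17745, which are similar shares. Of the 34 genes 31 (91.2%) had a positive log2 fold change, against 51.9% of all genes, with a median of 0.19 against 0.02. DESeq2 called 3 of the 34 genes higher (Myc, Nop56 and Noc2l), and 1602 of all 30260 genes (5.29%). Those 30260 include low-count genes that edgeR's filter removed, while all 34 passed that filter. The 5.29% is thus not a matched background, and no enrichment is read from it. Without i-TERTci replicate 2, edgeR called 7 of the 34 higher (Myc, Tcof1, Nop56, Noc2l, Npm1, Pa2g4 and Mybbp1a), against 2777 of 18358 genes (15.1%). That mouse stood near the controls in most of these genes, as given below.

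Counts of genes whose libraries did not overlap between groups leaned the same way. In i-TERTci against actin-rtTA+ kidneys 7 genes (20.6%) were higher in every library and 1 (2.94%) lower, against 9.01% and 8.17% of all genes. For TERT KO/KO mice, where 2 ADR mice are set against 3 saline mice, 20 genes (58.8%) were higher and 2 (5.88%) lower, against 21.3% and 20.8% of all genes. For TERT WT/WT mice these were 9 genes (26.5%) and 3 (8.82%), against 17.3% and 16.2% of all genes. Scaling by library totals alone moved the median of all genes to 0.18 in the i-TERTci comparison, 0.27 after ADR in TERT KO/KO and 0.17 after ADR in TERT WT/WT kidneys. Relative to those medians the 34 genes stood 0.17, 0.24 and 0.11 higher, as with TMM (0.17, 0.23 and 0.11). The split of calls in TERT WT/WT kidneys was then 12 higher and 1 lower in place of 8 and 3, while the shares of all genes were 20% higher and 5.81% lower in place of 15.2% and 12%.

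**Figure D1:**
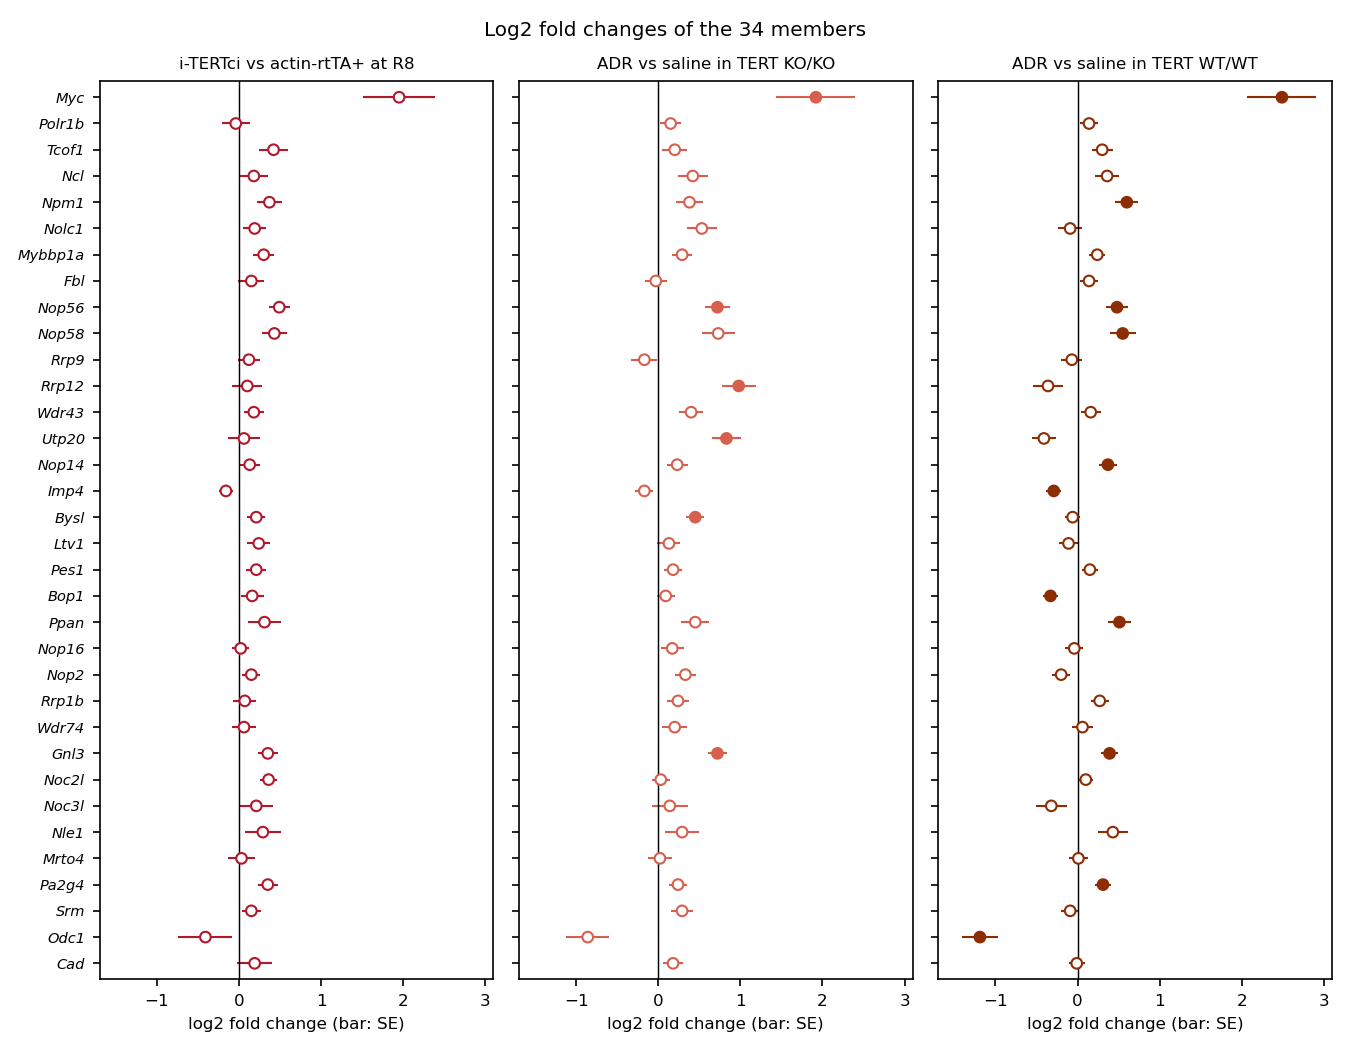
Log2 fold changes of the 34 genes (horizontal axis, points with bars for the standard error) in 3 comparisons: i-TERTci against actin-rtTA+ at R8, ADR against saline in TERT KO/KO and ADR against saline in TERT WT/WT kidneys. Filled points passed edgeR's test at an adjusted p under 0.05; Myc lies farthest right in each panel, at 1.95, 1.92 and 2.49, and Odc1 farthest left, at -0.41, -0.86 and -1.19.

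Myc (ENSMUSG00000022346.15, chr15:61985391-61990374, plus strand, mm10) was raised by ADR in both genotypes and was uneven among the mice. Among TERT KO/KO mice it reached 30.1 and 46.3 CPM after ADR, against 9.31, 9.79 and 11.2 CPM after saline. Both ADR mice stood above all saline mice, 3.78-fold (log2 fold change 1.92, SE 0.48, edgeR adjusted p = 0.0432). This call lay at the threshold: the log2 fold change stayed between 1.58 and 2.18, but the adjusted p passed 0.05 when any TERT KO/KO library or any TERT WT/WT saline library was left out, reaching 0.23 without TERT KO/KO ADR replicate 3. It was also lost without the filter on low counts (0.13) and with the liver-like library kept (0.117). In that library Myc was at 12.8 CPM.

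Myc was at 12.1, 62.2 and 62.0 CPM in TERT WT/WT kidneys after ADR, against 7.81, 8.65, 9.03 and 6.92 CPM after saline. The groups did not overlap, but 1 ADR mouse lay close to the saline range. The increase was 5.61-fold (log2 fold change 2.49, SE 0.42, edgeR adjusted p = 0.00261), and it was called whichever library was left out (adjusted p up to 0.0133).

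In i-TERTci kidneys Myc was at 55.9, 11.0 and 29.7 CPM, against 8.56, 7.09, 8.54 and 9.21 CPM in actin-rtTA+ kidneys. Every i-TERTci mouse was above every control, replicate 2 by little. The log2 fold change of 1.95 (SE 0.44) did not pass edgeR's test (adjusted p = 0.0758). DESeq2 gave 1.92 with an adjusted p of 0.000356, and edgeR without replicate 2 gave 2.35 with 0.000214.

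**Figure D2:**
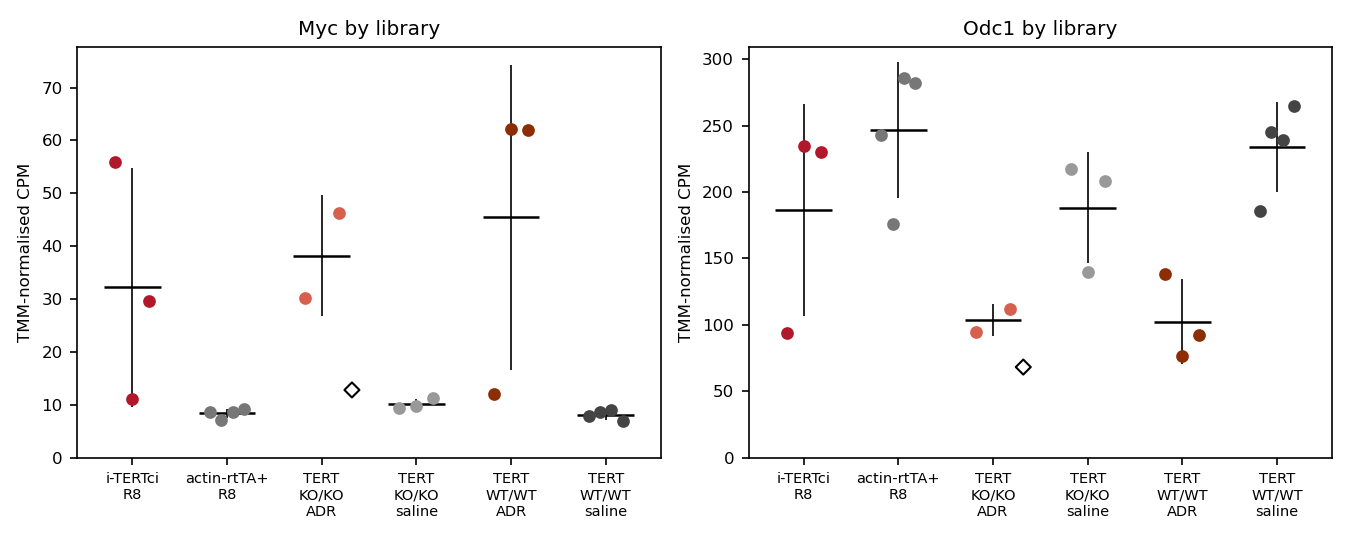
CPM of Myc and Odc1 in each library (points) by group, with the mean (horizontal bar) and SD (vertical bar). Myc spans 11.0 to 55.9 CPM among i-TERTci mice and 12.1 to 62.2 among TERT WT/WT ADR mice, while saline and actin-rtTA+ mice stay between 6.92 and 11.2; the open diamond is the liver-like TERT KO/KO ADR replicate 2, which enters no mean.

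Of the 6 genes of rRNA transcription and the nucleolus, 0 were called after ADR in TERT KO/KO kidneys, where all 6 values were positive (median log2 fold change 0.34), and 1 rose in TERT WT/WT kidneys (0.27). That gene was Npm1 (chr11:33152287-33163206, minus strand). In TERT KO/KO kidneys it was at 176 and 206 CPM after ADR, against 157, 140 and 142 CPM after saline, and was not called (0.38, SE 0.17, edgeR adjusted p = 0.197). In TERT WT/WT kidneys it was at 158, 226 and 212 CPM after ADR, against 118, 116, 143 and 146 CPM after saline. Neither pair of groups overlapped, and the TERT WT/WT log2 fold change was 0.60 (SE 0.14, adjusted p = 0.011), or 0.0594 in adjusted p without TERT WT/WT ADR replicate 2.

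Npm1 in i-TERTci kidneys was at 203, 151 and 205 CPM, against 156, 138, 135 and 149 CPM in actin-rtTA+ kidneys (0.37, SE 0.15, edgeR adjusted p = 0.199), and replicate 2 lay inside the control range. Tcof1 encodes treacle, a cofactor of RNA polymerase I. It was likewise lowest in replicate 2, with 41.0, 23.8 and 34.7 CPM in i-TERTci kidneys against 25.9, 26.3, 22.8 and 24.1 CPM in actin-rtTA+ kidneys (0.42, SE 0.18, adjusted p = 0.208). After ADR in TERT WT/WT kidneys its values were 25.7, 35.1 and 38.3 CPM, against 25.5, 25.8, 26.8 and 29.0 CPM after saline (0.30, SE 0.13, adjusted p = 0.0922).

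Nolc1 encodes a nucleolar chaperone of snoRNPs. TERT KO/KO kidneys held it at 45.9 and 40.6 CPM after ADR, against 32.0, 28.1 and 29.4 CPM after saline, and the difference missed the threshold (log2 fold change 0.53, SE 0.18, adjusted p = 0.098). The same gene stood in TERT WT/WT kidneys at 30.0, 28.2 and 42.7 CPM after ADR, against 30.5, 32.3, 38.9 and 41.2 CPM after saline, with overlapping groups. Mybbp1a, a nucleolar protein that binds MYB, had a log2 fold change of 0.30 in i-TERTci (SE 0.13, adjusted p = 0.221), 0.29 after ADR in TERT KO/KO (SE 0.12, 0.163) and 0.24 after ADR in TERT WT/WT kidneys (SE 0.10, 0.0937). Polr1b, a subunit of RNA polymerase I, and Ncl, which encodes nucleolin, were called in no comparison, with log2 fold changes of -0.04 to 0.15 and 0.18 to 0.42.

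Of the 3 core proteins of box C/D snoRNPs, which guide methylation of rRNA, 1 rose after ADR in TERT KO/KO kidneys (median log2 fold change 0.72) and 2 in TERT WT/WT kidneys (0.48). Nop56 (chr2:130274430-130279313, plus strand) was at 34.3 and 28.1 CPM in TERT KO/KO kidneys after ADR, against 17.9, 18.2 and 20.6 CPM after saline, a log2 fold change of 0.72 (SE 0.15, edgeR adjusted p = 0.0219). The adjusted p passed 0.05 when the fit omitted TERT KO/KO ADR replicate 1 or a saline library of that genotype, whichever of the 3 (up to 0.0897).

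TERT WT/WT kidneys had Nop56 at 21.1, 26.7 and 30.5 CPM after ADR, against 18.2, 20.1, 17.4 and 19.3 CPM after saline. All ADR mice were above all saline mice (log2 fold change 0.48, SE 0.13, edgeR adjusted p = 0.0185). The call was lost without TERT WT/WT ADR replicate 2, ADR replicate 3 or saline replicate 3 (adjusted p up to 0.0839). In i-TERTci kidneys it had the smallest p after Myc, at 25.6, 23.6 and 29.5 CPM against 17.3, 20, 20.5 and 17.1 CPM in actin-rtTA+ kidneys (0.49, SE 0.13, adjusted p = 0.0887). Here replicate 2 was above all controls, and DESeq2 called the difference (0.47, adjusted p = 0.0366).

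Nop58 (chr1:59684971-59719044, plus strand) was at 32.9 and 34.5 CPM in TERT KO/KO kidneys after ADR, against 19.2, 24.1 and 17.8 CPM after saline, and the log2 fold change of 0.73 (SE 0.20) just missed the threshold (edgeR adjusted p = 0.0506). It was at 20.1, 33 and 32.6 CPM in TERT WT/WT kidneys after ADR, against 17.2, 19.9, 20.8 and 20.3 CPM after saline. Replicate 1 lay inside the saline range, and the call (0.55, SE 0.16, adjusted p = 0.0284) was lost without TERT WT/WT ADR replicate 2 or 3 or whichever TERT WT/WT saline library (up to 0.139). In i-TERTci kidneys all 3 mice (22.3, 23.8 and 29.4 CPM) were above the 4 controls (19.6, 20.9, 19 and 15.1 CPM), with 0.43 (SE 0.15, adjusted p = 0.152). Fbl, which encodes the methyltransferase fibrillarin, had log2 fold changes of 0.15, -0.03 and 0.14 in the i-TERTci, TERT KO/KO and TERT WT/WT comparisons, none called.

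The 8 small-subunit factors gave different counts in the genotypes. After ADR 3 rose in TERT KO/KO kidneys (median log2 fold change 0.31), while of the same 8 genes 1 rose and 1 fell in TERT WT/WT kidneys (-0.09). Rrp12 (chr19:41862851-41896173, minus strand), an assembly and export factor of pre-ribosomes in yeast, was at 12.3 and 13.2 CPM in TERT KO/KO ADR kidneys, against 7.35, 5.02 and 6.97 CPM in saline kidneys. The groups did not overlap, and the increase was 1.98-fold (log2 fold change 0.98, SE 0.21, edgeR adjusted p = 0.0238). That call was lost when ADR replicate 3 of this genotype was left out, or whichever of its 3 saline libraries (adjusted p up to 0.117). Rrp12 in TERT WT/WT kidneys was at 6.18, 7.48 and 9.27 CPM after ADR, against 7.83, 9.45, 11.3 and 10.7 CPM after saline (-0.36, SE 0.18, adjusted p = 0.154).

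Utp20 (chr10:88746607-88826804, minus strand), a component of the U3-containing processome that cuts the rRNA precursor, was at 41.9 and 36.5 CPM in TERT KO/KO ADR kidneys, against 25.7, 19.1 and 21.3 CPM in saline kidneys. It rose 1.78-fold (log2 fold change 0.83, SE 0.18, edgeR adjusted p = 0.0225). Leaving out ADR replicate 1 or 3, or saline replicate 2 or 3, of this genotype took the adjusted p past 0.05 (up to 0.088). Its TERT WT/WT levels were 21.4, 20.7 and 25.2 CPM after ADR, against 27.6, 23.9, 31.1 and 36.6 CPM after saline, with overlapping groups (-0.41, SE 0.15, adjusted p = 0.0631).

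Bysl (chr17:47599331-47611492, minus strand), which encodes bystin of the pre-40S particle, rose in TERT KO/KO kidneys, at 21.9 and 23.3 CPM after ADR against 16.9, 16.2 and 16.8 CPM after saline (log2 fold change 0.45, SE 0.11, edgeR adjusted p = 0.0339). This call too lay at the threshold: it was lost without any 1 of the TERT KO/KO libraries, and without TERT WT/WT saline replicate 2, 3 or 4 (up to 0.182), as well as without the filter on low counts (0.12). Bysl in TERT WT/WT kidneys was at 18.8, 18.9 and 21 CPM after ADR, against 19.4, 21.9, 20.3 and 19.9 CPM after saline, and in i-TERTci kidneys at 20.9, 18.1 and 19.4 CPM, against 17.2, 17.1, 17.8 and 15.6 CPM (0.21, SE 0.11, adjusted p = 0.314). Its saline levels were lower in TERT KO/KO than in TERT WT/WT mice without overlap, but not called (-0.29, SE 0.09, edgeR adjusted p = 0.564).

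Nop14 and Imp4, both of the processome, went opposite ways in TERT WT/WT kidneys. Nop14 (chr5:34638536-34660148, minus strand) was at 25.2, 27.6 and 27.8 CPM after ADR, against 18.9, 20.4, 21.5 and 22.3 CPM after saline (0.37, SE 0.11, edgeR adjusted p = 0.0227), or up to 0.0852 without TERT WT/WT ADR replicate 2, ADR replicate 3 or saline replicate 2, and 0.051 without the filter on low counts. Imp4 (chr1:34439851-34449356, plus strand) was at 44.9, 38.2 and 40.3 CPM after ADR, against 49.2, 52.1, 48.9 and 50.8 CPM after saline (-0.29, SE 0.09, adjusted p = 0.0317). The Imp4 call was lost without TERT WT/WT ADR replicate 2 or 3 or saline replicate 2, 3 or 4 (up to 0.169), with library totals alone, without the filter on low counts, and with the liver-like library kept (0.156). Ltv1, a late pre-40S factor, was called in no comparison (0.24, SE 0.14, adjusted p = 0.327 in i-TERTci kidneys). Rrp9 and Wdr43 had log2 fold changes of -0.17 to 0.12 and 0.16 to 0.40, none called.

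**Figure D3:**
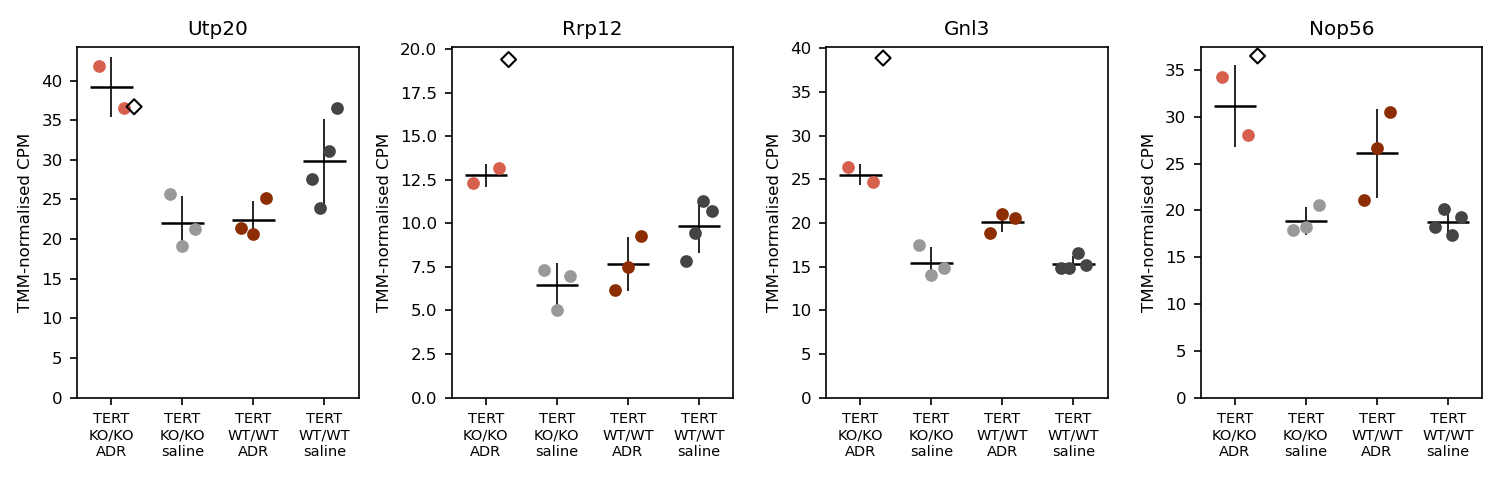
CPM of Utp20, Rrp12, Gnl3 and Nop56 in each library (points) of the ADR experiment by group, with the mean (horizontal bar) and SD (vertical bar); the open diamond is TERT KO/KO ADR replicate 2, not in the mean. Gnl3 and Nop56 are above saline after ADR in both genotypes, while Utp20 and Rrp12 are above saline in TERT KO/KO kidneys and overlap saline in TERT WT/WT kidneys.

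Of the 13 large-subunit factors 1 rose after ADR in TERT KO/KO kidneys (median log2 fold change 0.20), while in the TERT WT/WT genotype 3 rose and 1 fell (0.10). For TERT KO/KO and for i-TERTci mice all 13 values were positive (0.02 to 0.72 and 0.02 to 0.36). Gnl3 (chr14:31012433-31019152, minus strand) encodes nucleostemin, a nucleolar GTPase abundant in proliferating cells. It was at 26.4 and 24.7 CPM in TERT KO/KO ADR kidneys, against 17.5, 14.0 and 14.9 CPM in saline kidneys (0.72, SE 0.12, edgeR adjusted p = 0.0084), and this call held whichever library was left out (up to 0.0486). TERT WT/WT kidneys had 18.8, 21 and 20.6 CPM after ADR, against 14.8, 14.8, 16.6 and 15.2 CPM after saline (0.39, SE 0.10, adjusted p = 0.0158), or an adjusted p up to 0.0634 without TERT WT/WT ADR replicate 2 or 3. All ADR mice of both genotypes were above their saline mice. In i-TERTci kidneys it was at 18.3, 17.3 and 21.5 CPM, against 15.2, 16.2, 14.5 and 13.8 CPM in actin-rtTA+ kidneys, without overlap (0.35, SE 0.12, adjusted p = 0.155).

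Ppan (chr9:20888175-20892178, plus strand), a pre-60S factor, and Pa2g4 (chr10:128557766-128565987, minus strand), also named Ebp1, were higher in each TERT KO/KO ADR mouse than in each saline mouse without being called, at 0.45 (SE 0.17, edgeR adjusted p = 0.126) for Ppan and 0.24 (SE 0.11, 0.225) for Pa2g4. Both rose in TERT WT/WT kidneys. Ppan was there at 19.8, 27.0 and 21.2 CPM after ADR, against 17.5, 18.0, 14.1 and 14.0 CPM after saline (0.51, SE 0.14, adjusted p = 0.0205), or up to 0.12 without TERT WT/WT ADR replicate 2 or saline replicate 3 or 4. Pa2g4 was at 65.6, 81.0 and 73.6 CPM, against 62.9, 62.2, 56.9 and 54.4 CPM (0.31, SE 0.10, adjusted p = 0.0306), or up to 0.143 without TERT WT/WT ADR replicate 2 or 3 or saline replicate 3 or 4, and 0.11 without the filter on low counts. Neither pair of groups overlapped.

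Bop1 (chr15:76452989-76477277, minus strand), which forms the PeBoW complex with Pes1 and Wdr12, fell in TERT WT/WT kidneys, at 27.5, 27.4 and 28.2 CPM after ADR against 31.8, 38.0, 34.9 and 34.6 CPM after saline (-0.33, SE 0.09, edgeR adjusted p = 0.0201). The call was lost without TERT WT/WT ADR replicate 2 or 3 or saline replicate 2 or 3 (up to 0.0827), with library totals alone, without the filter on low counts, and with the liver-like library kept (0.301). Its partner Pes1 had a log2 fold change of 0.15 (SE 0.10, adjusted p = 0.252) there. Noc2l, of the nucleolar complex that exports pre-60S particles in yeast, was higher in each i-TERTci mouse (52.8, 44.7 and 48.6 CPM) than in each actin-rtTA+ mouse (36.3, 38.2, 39.3 and 37.6 CPM). The log2 fold change of 0.36 (SE 0.10) missed edgeR's threshold (adjusted p = 0.0998), and after ADR the same gene differed by 0.03 for the TERT KO/KO genotype and 0.10 for TERT WT/WT. The other 7 genes of this class, namely Nop16, Nop2, Rrp1b, Wdr74, Noc3l, Nle1 and Mrto4, were called in no comparison, with log2 fold changes of -0.32 to 0.43.

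Odc1 (chr12:17544794-17551505, plus strand) moved opposite to Myc after ADR in TERT WT/WT kidneys. Among TERT KO/KO mice it was at 94.9 and 112 CPM after ADR, against 217, 140 and 208 CPM after saline, without overlap. The log2 fold change of -0.86 (SE 0.26) missed the threshold of the main edgeR test (adjusted p = 0.0701). DESeq2 called Odc1 lower in this genotype too (-0.87, adjusted p = 0.0159), as did edgeR without the filter on low counts (-0.87, 0.041). Among TERT WT/WT mice it was at 138, 76.6 and 92.2 CPM after ADR, against 186, 245, 239 and 265 CPM after saline. The groups did not overlap, and it fell by 1.19 on the log2 scale (SE 0.22, adjusted p = 0.00342), called whichever library was left out (up to 0.0221).

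In i-TERTci kidneys Odc1 was at 94.2, 235 and 230 CPM, against 243, 176, 286 and 282 CPM in actin-rtTA+ kidneys, so that only replicate 1, the mouse with the most Myc, lay below the controls (-0.41, SE 0.33, adjusted p = 0.495). Srm, which encodes spermidine synthase, was not called, with 0.15 in i-TERTci (SE 0.12, adjusted p = 0.501), 0.29 after ADR in TERT KO/KO (SE 0.13, 0.195) and -0.09 after ADR in TERT WT/WT kidneys (SE 0.11, 0.573). Cad, which starts pyrimidine synthesis, had values of 0.19, 0.18 and -0.01 in the same order, none called.

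**Figure D4:**
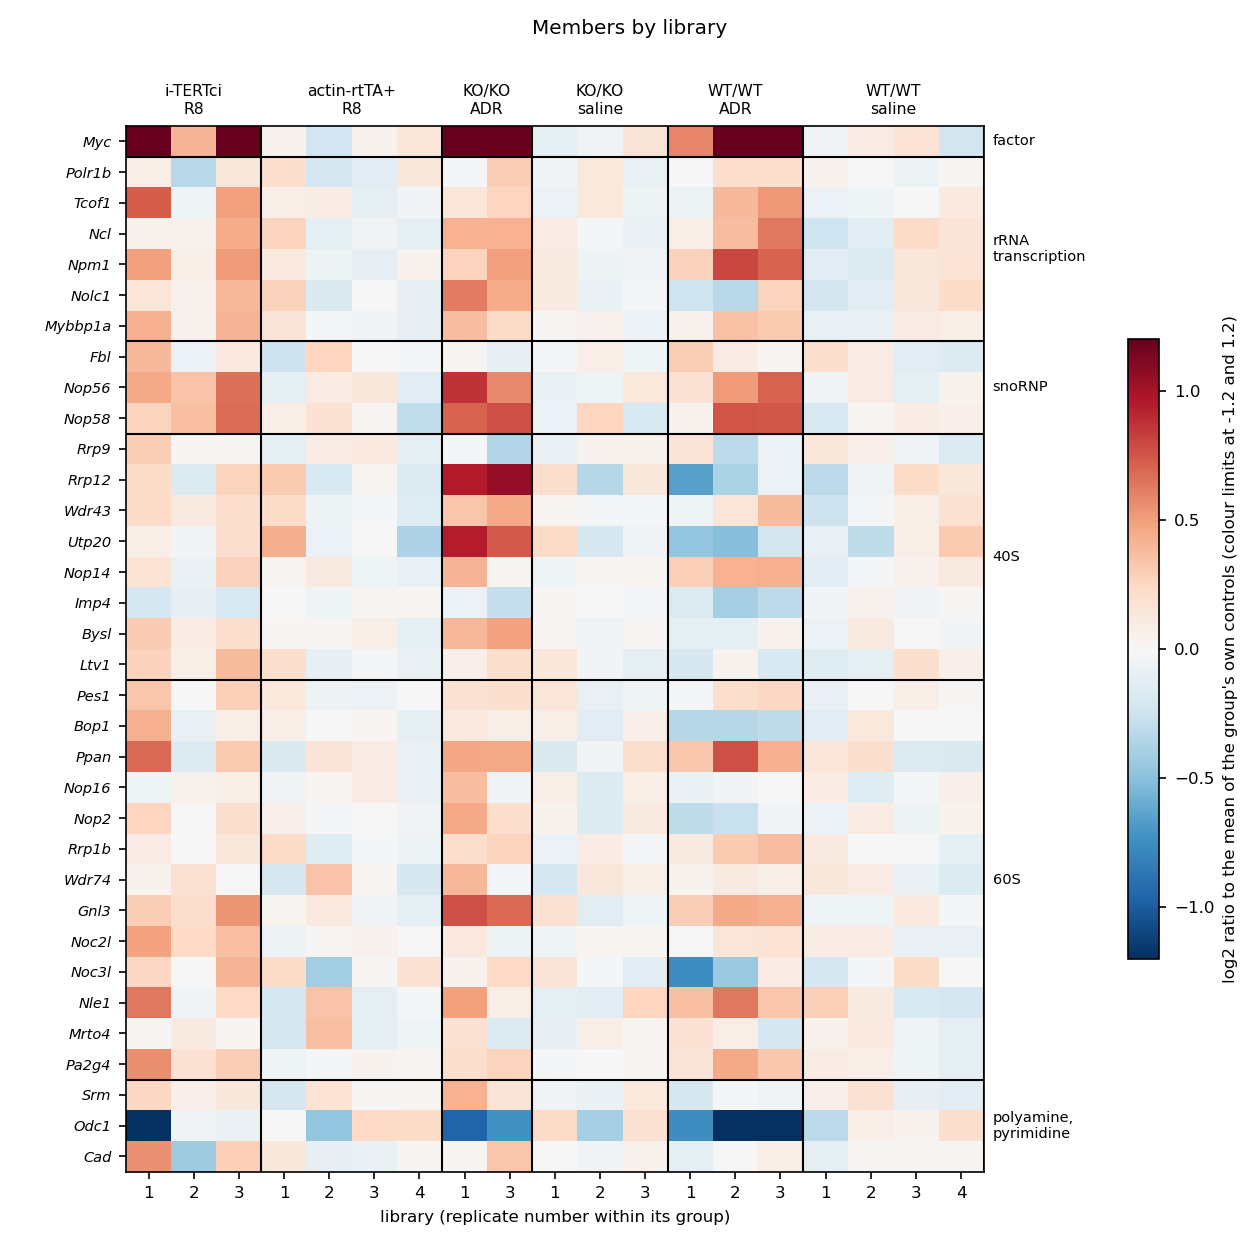
Log2 ratio of each of the 34 genes (rows, by role) in each library (columns, by group) to the mean of its own controls. Red is higher and blue lower; Myc is the reddest row and Odc1 the bluest in the injured groups, and the columns of i-TERTci replicate 2 and TERT WT/WT ADR replicate 1 are paler, with a median ratio over the other 33 genes of 0.01 each.

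The genotypes were compared directly. Without injury 0 of the 34 genes were called between the genotypes, with 0.00526% of all genes called, and 5 had an unadjusted p under 0.05, of 1672 in all genes. Those 5 (Rrp12, Utp20, Bysl, Bop1 and Nop2) were all lower in TERT KO/KO saline kidneys, by log2 fold changes of -0.61 to -0.27. After ADR 0 were called, with 0.0736% of all genes called (3 at an unadjusted p under 0.05, of 1458). When the ADR effect of one genotype was subtracted from that of the other (TERT KO/KO minus TERT WT/WT), edgeR called 0 of the 34 genes and 0% of all genes, and 7 of the 34 had an unadjusted p under 0.05, of 2288 genes. DESeq2 called Utp20 and Rrp12 higher for this difference, where it called 0.226% of all 33136 genes higher, low-count genes outside edgeR's filter included.

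Utp20 and Rrp12 had the smallest p of the 34 genes for this difference. For Utp20 the difference of the ADR effects was 1.24 on the log2 scale (SE 0.23, edgeR adjusted p = 0.141). For Rrp12 it was 1.35 (SE 0.28, adjusted p = 0.196). DESeq2 gave adjusted p-values of 0.00225 and 0.00608, edgeR without the filter on low counts 0.0031 and 0.021, and edgeR without TERT WT/WT ADR replicate 1 gave 0.0338 and 0.0434. The other settings called 0 of the 34 genes for this difference: median-ratio factors, library totals alone, the replicate block and the liver-like library kept. Leaving out any 1 saline library of either genotype, or TERT WT/WT ADR replicate 2 or 3, also gave 0. In saline kidneys the log2 fold change of TERT KO/KO against TERT WT/WT was -0.61 for Rrp12 (SE 0.18, adjusted p = 0.564) and -0.44 for Utp20 (SE 0.15, 0.564). After ADR it was 0.80 for Utp20 (SE 0.18, adjusted p = 0.191) and 0.74 for Rrp12 (SE 0.21, 0.366). The liver-like library, which enters none of these values, had 36.7 CPM of Utp20 and 19.4 CPM of Rrp12.

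Myc did not differ detectably between genotypes. It was at 0.32 on the log2 scale in TERT KO/KO against TERT WT/WT saline kidneys (SE 0.42, adjusted p = 0.814) and at -0.25 after ADR (SE 0.48, 0.928). The difference of its ADR effects was -0.57 (SE 0.64, adjusted p = 0.721), and -1.02 (SE 0.24, 0.0499) once TERT WT/WT ADR replicate 1 was left out. The effect of i-TERTci was also set against that of ADR on TERT WT/WT kidneys: 0 of the 34 genes were called, with 0.00505% of all genes called, and 2 had an unadjusted p under 0.05 (Bop1 and Nop2), of 1417 in all genes. For Myc that difference was -0.56 (SE 0.64, adjusted p = 0.876). Background strain, treatment and experiment differ between these arms and cannot be told apart.

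In i-TERTci and TERT WT/WT ADR mice the variation was shared by several measures. In i-TERTci replicates 1, 2 and 3 the log2 ratio of Myc to the mean of the actin-rtTA+ mice was 2.73, 0.40 and 1.83, and the median ratio of the other 33 genes was 0.27, 0.01 and 0.26. ADR replicates 1 and 3 of the TERT KO/KO genotype had Myc at 1.57 and 2.19 relative to saline and the 33 genes at 0.34 and 0.24. After ADR, TERT WT/WT replicates 1, 2 and 3 had Myc at 0.58, 2.93 and 2.93 and the 33 genes at 0.01, 0.10 and 0.16. Thus i-TERTci replicate 2 and TERT WT/WT ADR replicate 1 were the mice with the least Myc and the least shift of the other genes. Without TERT WT/WT ADR replicate 1, edgeR called 15 genes, 12 higher and 3 lower, and 21.3% of all genes higher and 19.8% lower. The 4 added genes were Tcof1, Ncl, Mybbp1a and Rrp1b. Without TERT WT/WT ADR replicate 2 only Myc and Odc1 were called of the 34 genes, and of all genes 6.94% were called higher and 2.12% lower.

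Genes of proliferation and of macrophages varied along with them. The summed CPM of 20 proliferation genes was 96.7 to 387 in i-TERTci kidneys against 81.5 to 104 in actin-rtTA+ kidneys, 201 to 351 against 79.6 to 80.1 for ADR against saline in TERT KO/KO, and 157 to 312 against 75.5 to 86.7 in TERT WT/WT kidneys. After ADR 19 of the 20 rose in each genotype. The sum of 12 macrophage genes was 239 to 1690 CPM in i-TERTci against 158 to 237 in actin-rtTA+ kidneys, 226 to 699 against 189 to 230 for ADR against saline in TERT KO/KO, and 375 to 915 against 182 to 239 in TERT WT/WT kidneys. For TERT KO/KO ADR replicate 1 the macrophage sum (226) lay within the saline range while Myc was at 30.1 CPM. In i-TERTci replicate 2 and TERT WT/WT ADR replicate 1 the median log2 ratio of the proliferation genes was 0.30 and 2.01, against 2.04 to 3.49 in the other 6 mice of the treated groups. Of the 12 macrophage genes 4 rose in TERT KO/KO and 10 in TERT WT/WT kidneys. Over all genes 3.83% and 15.2% rose, and 1.43% and 12.0% fell. In the same order, 4 and 6 of 8 fibroblast genes rose (1 fell in TERT WT/WT), 0 and 2 of 8 T cell genes rose, 0 and 3 of 8 hepatocyte genes rose, and 1 and 4 of 10 kidney genes fell. The summed kidney genes were lower without overlap in each comparison, at 7690 to 12400 CPM in i-TERTci against 12600 to 16500 in actin-rtTA+ kidneys, 8670 to 9600 against 10800 to 12700 for ADR against saline in TERT KO/KO, and 6980 to 11400 against 12100 to 15500 in TERT WT/WT kidneys. Abundant genes weigh most in this sum, as Slc34a1 alone averaged 6180 CPM in actin-rtTA+ kidneys. By gene, 4, 2 and 1 of the 10 had a positive log2 fold change in the same order, with medians of -0.21, -0.47 and -0.91. With library totals alone 7 macrophage genes rose and 0 kidney genes fell in TERT KO/KO kidneys, and 2 hepatocyte genes rose and 1 fell. Of all genes 8.12% then rose and 0.725% fell. The part of these cell types in the levels of the 34 genes was not tested.

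**Figure D5:**
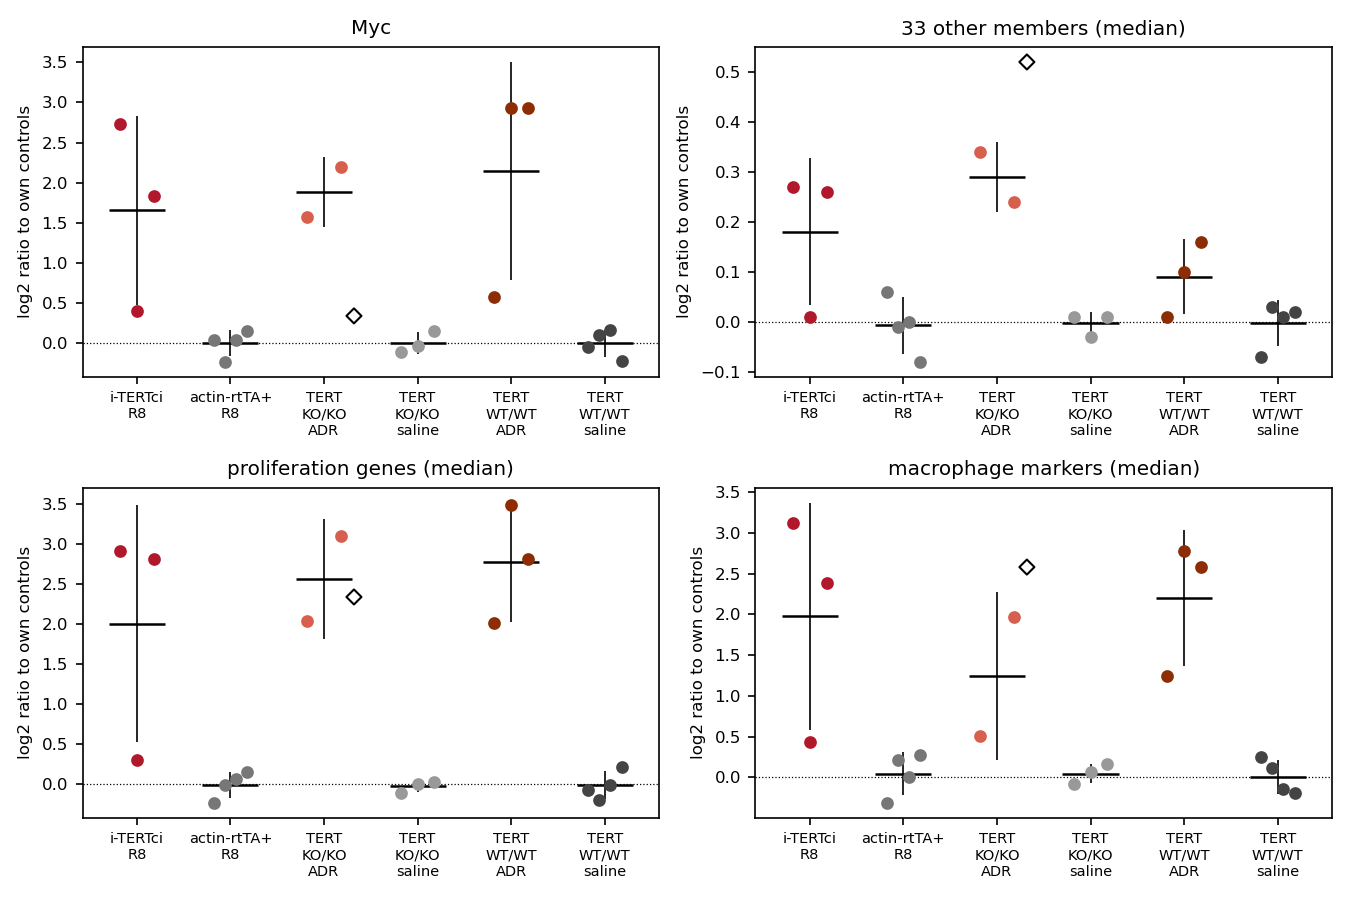
Log2 ratio to the mean of its own controls, per library (points), of Myc and as the median of the other 33 genes, of 20 proliferation genes and of 12 macrophage genes. Among i-TERTci mice replicate 2 is lowest in all 4 panels (0.40, 0.01, 0.30 and 0.43), and among TERT WT/WT ADR mice replicate 1 is (0.58, 0.01, 2.01 and 1.24); open diamonds mark TERT KO/KO ADR replicate 2.

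Related genes outside the 34 were read from lists of the same pathways. Of 20 genes of the MYC network 3 (15.0%) rose in ADR-treated TERT KO/KO kidneys, and 6 (30.0%) rose and 1 (5.00%) fell in TERT WT/WT kidneys. Mxd3, a MAX partner that opposes MYC, rose by 1.91 (SE 0.33, edgeR adjusted p = 0.00974) in TERT KO/KO and by 2.44 (SE 0.29, 0.000759) in TERT WT/WT kidneys. Aurka, a mitotic kinase, rose by 2.46 (SE 0.36, 0.00573) in the knockout and by 2.08 (SE 0.30, 0.00144) in the wild type. Mycl, a paralog of Myc, had 2.00 in i-TERTci kidneys (SE 0.48, adjusted p = 0.0786). Of 16 genes of RNA polymerase I, 0 were called in TERT KO/KO kidneys. In TERT WT/WT kidneys 2 (12.5%) rose (Taf1d, 0.67, and Polr2h, 0.49), a share below the 15.2% of all genes. With library totals alone 2 of the 16 rose in TERT KO/KO and 5 in TERT WT/WT kidneys, and of the MYC network 5 and 8 rose and none fell in either.

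Of 93 other ribosome biogenesis genes 4 (4.30%) rose and 0 fell in the TERT KO/KO genotype, at a median log2 fold change of 0.17. Over all genes 3.83% rose there. For TERT WT/WT mice 8 (8.60%) rose and 4 (4.30%) fell, at 0.05, against 15.2% and 12.0% of all genes. In i-TERTci kidneys 0 were called and the median was 0.08. With library totals alone the calls were 14 higher and 0 lower for TERT KO/KO, and 13 higher and 0 lower for TERT WT/WT mice. Mak16 (0.64), Tsr1 (0.65) and Noc4l (0.51) rose in TERT KO/KO kidneys. Utp14a (0.61) and Gar1 (0.58), of the processome and of box H/ACA snoRNPs, rose in TERT WT/WT kidneys, where Tsr2 fell (-0.36). Of 37 other textbook MYC targets 3 (8.11%) rose and 0 fell for TERT KO/KO, and 6 (16.2%) rose and 8 (21.6%) fell for TERT WT/WT mice. With library totals alone these counts were 6 and 0, and 8 and 6, beside the shares of all genes given above for that scaling. Slc7a5, an amino acid transporter, rose in both genotypes (1.31 and 1.09), and Tfrc, the transferrin receptor, fell in TERT WT/WT kidneys (-1.21).

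Genes of the ribosomal proteins themselves gave other values than the assembly factors. Of 78 cytoplasmic ribosomal protein genes tested 0 were called in i-TERTci kidneys (median 0.06) or with ADR in TERT KO/KO kidneys (-0.03). With ADR in TERT WT/WT kidneys 9 (11.5%) rose and 0 fell (0.30), against 15.2% and 12.0% of all genes. In saline kidneys their median was 0.38 higher in TERT KO/KO than in TERT WT/WT (0.27 with library totals alone), with 0 called. At an unadjusted p under 0.05 were 38 of the 78, and 1672 of all 19023 genes. The 38 are not independent measures. The summed CPM of these genes was 20400 to 24600 in TERT KO/KO and 15300 to 20100 in TERT WT/WT saline mice, and ran from 15800 to 26800 among actin-rtTA+ mice alone. Of 76 mitochondrial ribosomal protein genes 0 were called in i-TERTci or TERT KO/KO kidneys, and 2 (2.63%) rose and 12 (15.8%) fell in TERT WT/WT. The medians were -0.28, -0.24 and -0.22. With library totals alone the TERT KO/KO medians were 0.23 for the cytoplasmic and 0.02 for the mitochondrial genes, so their signs depended on the scaling. The TERT WT/WT calls were then 46 higher for the cytoplasmic genes, and 5 higher and 3 lower for the mitochondrial genes.

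In the polyamine pathway beside Odc1 and Srm, 0 of 14 genes were called for TERT KO/KO mice. For TERT WT/WT mice 4 (28.6%) rose and 3 (21.4%) fell, against 15.2% and 12.0% of all genes. With library totals alone 2 rose for TERT KO/KO, and 5 rose and 2 fell for TERT WT/WT. Smox (1.54, SE 0.27, edgeR adjusted p = 0.00296) and Sat1 (0.68, SE 0.13, 0.00478), which break polyamines down, and Azin2 (0.79, SE 0.14, 0.00318), an inhibitor of antizyme, were among the genes that rose in TERT WT/WT kidneys, where Odc1 fell.

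Some counts may hold reads of neighbouring genes. Exons of 17 of the 34 genes overlap those of another annotated gene, 13 on the other strand and 6 on the same strand. The other-strand neighbours include Idh3b at Nop56, Pbrm1 at Gnl3, Ccnd3 at Bysl and Mroh1 at Bop1, and small RNA genes, mostly snoRNAs, lie within Nop56, Nop58, Gnl3, Ppan, Pa2g4 and Ncl. The strand setting of the counting is not given in the sources used here, so reads of overlapping genes may be shared. Myc, Npm1, Rrp12, Utp20 and Odc1 have no such overlap.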

How the data were processed

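Whole-kidney RNA with an integrity number above the submitters' limit was sequenced in 20 mice. Per the study's methods, the authors checked paired reads with FastQC, trimmed them with Trimmomatic and mapped them to mm10 by STAR. The deposited table holds raw whole-number counts for each gene, without scaling by the authors. The counting tool, annotation and strand setting are not given in the sources used here. Of 55471 identifiers 55230 matched GENCODE M21 without version, which gave symbols, positions and exon lengths. Promoter sequences came from RefSeq (GRCm38.p6).

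Counts were tested with edgeR 4.0.16 in R 4.3.3 (filterByExpr, TMM factors, robust quasi-likelihood F test, Benjamini-Hochberg adjustment over all genes tested, call under 0.05), with 1 coefficient per group and 1 fit per experiment (7 and 12 libraries, and 19 for both). The liver-like library (TERT KO/KO ADR replicate 2) did not enter, by the list's rule. SDs are over mice. Log2 ratios of single libraries used a pseudocount of 0.1 CPM. Alternatives were median-ratio factors, library totals alone, no filter, DESeq2 1.42.0, the replicate number as a block, that library kept, and each library left out. The edgeR step was tested on simulated counts. Replicates differed by more than counting noise (smallest chi-square per degree of freedom 10.6), so none was counted as a duplicate. The p-values set a group difference against the spread between mice, pooled over the groups of a fit and moderated across genes. The TERT KO/KO ADR group of 2 mice thus draws on the spread of the other groups.

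Named with full values were Myc and, in each role class, the up to 2 genes with the smallest p in each of 3 comparisons (i-TERTci, ADR in TERT KO/KO, ADR in TERT WT/WT), and of other lists up to 3 genes per comparison. The other members are given by counts, ranges and single values. Genes and lists were chosen with earlier results of these data known.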

Additional observations from a re-analysis of the deposited data

Results flagged for a closer look

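Of 68 groups of 4 mice (34 genes in actin-rtTA+ and in TERT WT/WT saline kidneys), 2 held a library whose gap to the nearest other exceeded Dixon's 95% limit for 4 samples, which chance alone passes in some groups. Ncl was at 234 CPM in actin-rtTA+ replicate 1, against 179 to 188 CPM in the other 3 actin-rtTA+ mice. Cad was at 16.1 CPM in TERT WT/WT saline replicate 1, against 17.8 CPM in the other 3, a small gap beside a very narrow range. In the liver-like library TERT KO/KO ADR replicate 2, which enters no comparison, the median log2 ratio of the 33 genes other than Myc was 0.52, against -0.03 to 0.01 in the 3 saline mice of that genotype. This sets a liver-like library against kidney libraries, and the same ratio over all genes is not given here, so it is not read as a trait of these genes.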

How the results depend on the processing

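Over the alternatives, 769 values of 46 named fold changes were recomputed: 643 kept their direction and side of the threshold, 86 lost and 36 gained significance, and 4 changed sign. Those were Myc in TERT KO/KO against TERT WT/WT kidneys after ADR (-0.25), which ranged from -0.7 without TERT WT/WT ADR replicate 1 to 0.04, at 0.02 without TERT KO/KO ADR replicate 1, 0.04 without TERT WT/WT ADR replicate 2 and 0.04 without TERT WT/WT ADR replicate 3, and Srm after ADR in TERT WT/WT kidneys (-0.09), at 0.08 with library totals alone. Counts of called genes that moved by over 1.5 times were 3 in place of 0 for i-TERTci with DESeq2, 10 in place of 6 after ADR in TERT KO/KO with library totals alone (8.12% of all genes higher in place of 3.83%), 3 in place of 11 in TERT WT/WT with TERT KO/KO ADR replicate 2 kept (4.1% of all genes higher and 0.728% lower in place of 15.2% and 12%), 1 in place of 0 between genotypes after ADR without the filter or with DESeq2 (Utp20), and 2 in place of 0 for the difference of ADR effects under the same settings. With 1 library left out, the counts ranged over 0 to 7 for i-TERTci, 1 to 9 for ADR in TERT KO/KO, 2 to 15 for ADR in TERT WT/WT, 0 to 0 between genotypes in saline, 0 to 1 after ADR, 0 to 3 for the difference of ADR effects and 0 to 0 for i-TERTci against ADR. With median-ratio factors no count moved by over 1.5 times. Keeping the liver-like library put the adjusted p above 0.05 for Myc (0.117) and Bysl (0.0637) in TERT KO/KO, and for Nop56, Nop58, Nop14, Imp4, Bop1, Ppan, Gnl3 and Pa2g4 in TERT WT/WT kidneys (0.0804 to 0.301). Without the filter on low counts edgeR's adjusted p passed 0.05 for Myc (0.13) and Bysl (0.12) after ADR in TERT KO/KO, and for Nop14 (0.051), Bop1 (0.077), Pa2g4 (0.11) and Imp4 (0.13) after ADR in TERT WT/WT kidneys.

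Replicate numbers were not treated as a pairing: correlations of same-numbered libraries' deviations ran from -0.34 to 0.361 and were not all above 0.1. With so few mice per group these correlations cannot exclude a pairing. With the number as a replicate block, 5 genes were called after ADR in TERT KO/KO in place of 6, and 5 in TERT WT/WT in place of 11 (10.5% of all genes higher and 8.44% lower). The adjusted p was then above 0.05 for Myc (0.0628) and Bysl (0.0758) in TERT KO/KO, and for Nop56 (0.0505), Gnl3 (0.0554), Ppan (0.0609), Bop1 (0.0635), Imp4 (0.0822) and Pa2g4 (0.108) in TERT WT/WT kidneys.

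Each of the 34 genes had at least 4.1 CPM in every library. The counts of calls moved with single mice: without i-TERTci replicate 2 edgeR called 4325 genes in place of 1 in the i-TERTci comparison.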
